A study of Bos taurus with 3 samples.

Results

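The epidermal growth factor (EGF) receptor family and its ligands were followed across the cells of the newborn rumen. The members were the receptor genes EGFR, ERBB2 and ERBB3 and the ligand genes AREG, EREG, HBEGF, TGFA and BTC, taken by gene symbol from the deposited count matrices, and all 8 were found, each as 1 of the 27270 genes. Rumen was taken from the ventral sac of 3 newborn (NB) Holstein calves 1 day after birth, stripped of its outer muscle, digested with EDTA, trypsin and a mix of collagenases, dispase, hyaluronidase and DNase, and sequenced as 1 single-cell library per animal. A kit that removes dead cells was used on suspensions of low viability, and which calves this concerned is not given in the sources used here. Adult samples were not analysed here, so the comparisons are between cells of the same calves.

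The EGF receptor is a tyrosine kinase at the cell surface that pairs with itself or with its relatives. ERBB2 binds no known ligand and serves as a partner, whereas ERBB3 has little kinase activity of its own, binds neuregulins and signals mainly through such pairs. The ligands are made as membrane-anchored precursors and are cut free by proteases such as ADAM17. Amphiregulin (AREG) and transforming growth factor alpha (TGFA) bind EGFR, and epiregulin (EREG), heparin-binding EGF-like growth factor (HBEGF) and betacellulin (BTC) bind EGFR and ERBB4. In stratified epithelia this system is known for its role in the growth of basal cells and in wound repair.

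The 3 libraries held 31228 barcodes with 82263092 to 106145091 unique molecular identifiers (UMIs, counts of single captured transcripts) each. With 500 to 4000 detected genes and limits on total UMIs, mitochondrial UMIs and doublets, 4695, 9746 and 9601 cells were kept from calves 1, 2 and 3, with medians of 10182, 6498.5 and 7418 UMIs. Each pair of libraries shared 21 to 37 barcode strings. The cells fell into 21164 epithelial cells, 1304 endothelial cells, 807 immune cells and 766 fibroblasts, the last with the myofibroblast or mural cells included, and 1 cell stood apart and was left out. Calf 1 gave only 10 of the immune cells and 22 of the fibroblasts. EPCAM was at a mean of 1.58 UMIs per 10000 in epithelial cells against at most 0.321 in the other classes. PECAM1 (6.62 in endothelial cells), PTPRC (3.92 in immune cells) and COL3A1 (111 in fibroblasts) were also highest in their class. Other listed markers were less specific, such as CLDN1 at 3.18 in epithelial and 2.95 in immune cells. DCN was at 43.8 in fibroblasts and 3.29 in epithelial cells. Within the fibroblast class, the myofibroblast or mural cells held COL3A1 at only 12.2.

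A level below is a gene's UMIs per 10000 UMIs, counted after adding up the cells of a group within a calf. Levels of different genes were not ranked, since capture at the 3′ end can differ from gene to gene. Epithelial RNA that drifts into other droplets was gauged by the summed level of KRT5, KRT14, KRT15, PERP and DSP as a percent of the epithelial level in the same calf. It was 13.9%, 5.48% and 3.19% in the endothelial cells of calves 1, 2 and 3, 52.9%, 12.7% and 7.56% in the fibroblasts, and 4.84%, 14.5% and 6.06% in the immune cells. The part that such RNA and missed doublets play in low levels outside the epithelium was not tested.

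EGFR was found mainly in epithelial cells, at 0.174, 0.102 and 0.338 UMIs per 10000 in calves 1, 2 and 3. Calf 3 was the highest and calf 2 the lowest, and each lay above all endothelial values, which were 0, 0.0163 and 0.00860. Fibroblasts held 0.249, 0.0244 and 0.0890, from only 2, 2 and 9 UMIs, and immune cells 0, 0 and 0.0136. When each cell was thinned to 2000 UMIs, an EGFR UMI was found in 4.09% (95% confidence interval 3.53 to 4.72, exact Clopper-Pearson, counting error only), 2.16% (1.86 to 2.49) and 7.22% (6.65 to 7.83) of epithelial cells, and in 0 of 1170 endothelial cells. The largest endothelial sample, 608 cells of calf 3, allowed a share of up to 0.493%. Before thinning, the median depths were 7695 UMIs in epithelial and 3999 in endothelial cells, and the epithelial shares were 16.8%, 7.39% and 24.8%.

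ERBB2 was the receptor gene with the widest spread over classes. Its level was 0.339, 0.444 and 0.275 in epithelial cells and 0.624, 0.268 and 0.455 in fibroblasts of calves 1, 2 and 3, so that the groups overlapped. Endothelial cells held less, at 0.180, 0.106 and 0.106, which was 53.1%, 23.9% and 38.6% of the epithelial level and in every calf a larger percent than that of the keratin list above. Immune cells held 6 ERBB2 UMIs in all. After thinning, 7.29% ± 1.77 (SD, n = 3 calves) of epithelial cells had an ERBB2 UMI, against 5.42% ± 1.56 of fibroblasts, 2.03% ± 0.742 of endothelial and 0.529% ± 0.783 of immune cells.

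ERBB3 was concentrated in the epithelium, at 0.160, 0.194 and 0.0639 UMIs per 10000. Endothelial cells and fibroblasts held 5 and 3 ERBB3 UMIs in all. In the immune cells of calf 3, 21 UMIs in 19 cells gave a level of 0.0571, which was 89.3% of the epithelial level of that calf against 6.06% for the keratin list, whereas calves 1 and 2 held 0 and 1 UMI there. Nearly all ERBB3 UMIs of immune cells thus came from calf 3, which supplied most of these cells.

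AREG had its highest level in immune cells, and the epithelium was second. Epithelial cells held 0.404, 0.0980 and 0.371 UMIs per 10000, with calf 2 the lowest, while immune cells held 8.97, 0.685 and 0.623, each above every epithelial value. All 45 AREG UMIs in the immune cells of calf 1 lay in 1 cell. In calves 2 and 3 the UMIs were spread over 9 and 86 immune cells, with at most 15 and 17 in 1 cell. Endothelial cells and fibroblasts held 4 AREG UMIs each. After thinning, an AREG UMI was found in 1 of 7, 5 of 70 and 45 of 635 immune cells, the last a share of 7.09% (5.22 to 9.37), in 5.92%, 1.75% and 4.80% of epithelial cells, and in 0.190% ± 0.204 (SD, n = 3 calves) of endothelial cells, taken here as the class that should lack it.

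HBEGF was shared between epithelium, endothelium and immune cells. Its level was 0.230, 0.0915 and 0.260 in epithelial cells and 0.385, 0.131 and 0.364 in endothelial cells of calves 1, 2 and 3. Endothelial cells were higher in each of the 3 calves, at 167%, 143% and 140% of the epithelial level, and calf 2 was the lowest in both classes. Immune cells held 0.798, 0.137 and 0.185, the first from 4 UMIs. Fibroblasts held 5 HBEGF UMIs in all, and in none of 417 thinned fibroblasts was one left. The largest of these samples, 235 cells of calf 3, allowed a share of up to 1.28%.

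BTC was the only member whose level in fibroblasts exceeded that in epithelial cells in every calf with no overlap. Fibroblasts held 0.125, 0.134 and 0.287 UMIs per 10000, from 1, 11 and 29 UMIs, against 0.0137, 0.0400 and 0.0303 in the epithelium. These levels were 913%, 335% and 947% of the epithelial ones in the same calves. Endothelial and immune cells held 1 and 2 BTC UMIs.

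EREG and TGFA were close to the limit of detection. EREG had 45 UMIs over all epithelial cells, at levels of 0.00218, 0.00104 and 0.00393, and 12 UMIs in immune cells, at 0, 0.0228 and 0.0299. TGFA had 21 UMIs in epithelial cells and none elsewhere. The absence of both genes from endothelial cells, which allows a pooled level of up to 0.00474 UMIs per 10000, and from fibroblasts, up to 0.0157, does not set these classes below the epithelium, whose pooled levels of 0.00241 for EREG and 0.00112 for TGFA lie under both limits. For TGFA in immune cells the limit was 0.00720.

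**Figure D1:**
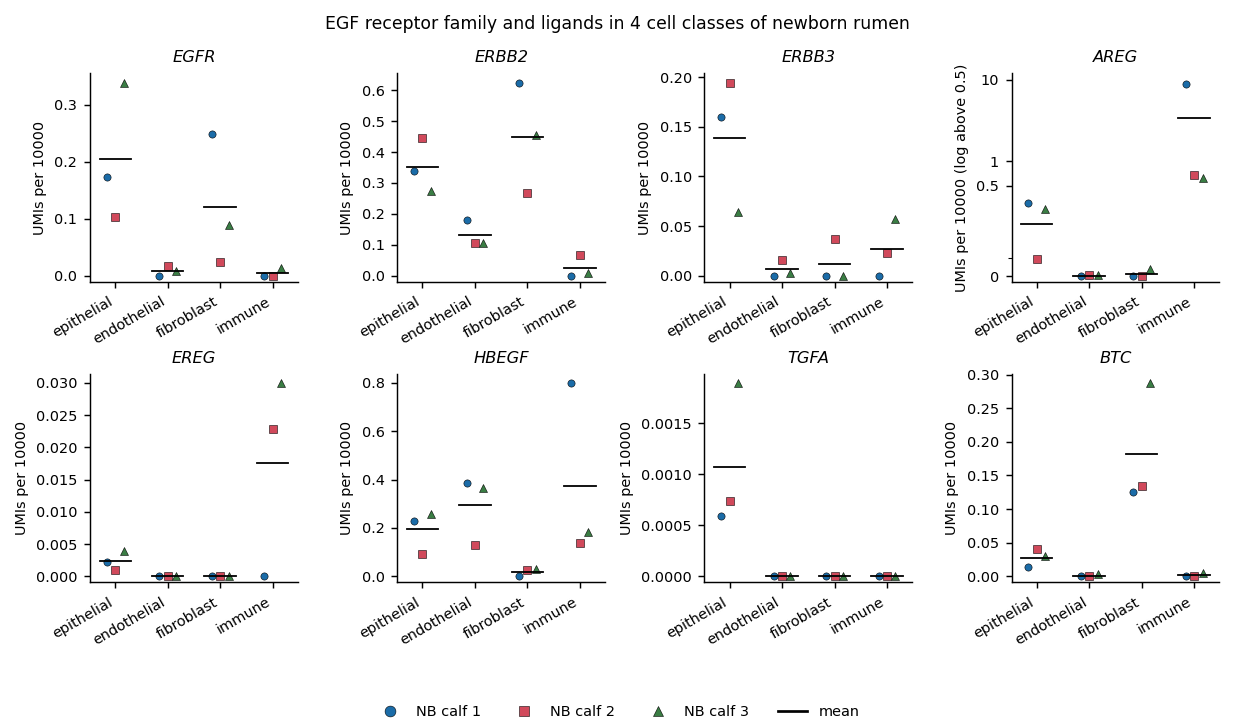
Levels of the 8 genes (vertical axes, UMIs per 10000, linear except for AREG, which is logarithmic above 0.5) in 4 cell classes, with 1 point per NB calf and a line at the mean of the calves. EGFR stands highest in epithelial cells of calves 2 and 3 and ERBB3 in epithelial cells of each calf. BTC stands highest in fibroblasts and AREG in immune cells, where the point of calf 1 at 8.97 comes from 1 cell.

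To compare the classes, UMI counts were summed per calf and class and fitted over all genes by edgeR's quasi-likelihood method, blocked by calf, with Benjamini-Hochberg adjustment over 16086 genes. The classes come from the same libraries and were drawn from the same cells, so a p-value measures only how alike the difference was in the 3 calves. Epithelial cells exceeded endothelial cells in 5 of the 8 members, beside 38.3% of all genes called in either direction. The log2 differences were 4.63 ± 0.51 (SE; adjusted p = 1.77e-09) for EGFR, 1.99 ± 0.31 (adjusted p = 2.14e-06) for ERBB2, 4.37 ± 0.58 (adjusted p = 8.88e-08) for ERBB3, 5.50 ± 0.66 (adjusted p = 1.37e-08) for AREG and 4.79 ± 0.89 (adjusted p = 3.56e-05) for BTC. The endothelial side of the BTC contrast is 1 UMI, and the ratio of the pooled levels was 18.5, with a counting interval of 3.31 to 733. HBEGF did not pass, with a log2 difference of -0.17 ± 0.27 (adjusted p = 0.663). EREG (5.17 ± 2.44, adjusted p = 0.0962) and TGFA (4.26 ± 2.68, adjusted p = 0.249) had no endothelial UMI and did not pass. The median log2 difference was 4.50 over the 8 members, also 4.50 over the 6 with UMIs in both classes, and 0.17 over all genes.

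Against fibroblasts, 5 members passed, beside 29.3% of all genes, and here the members split. EGFR (2.09 ± 0.48, adjusted p = 0.000777), ERBB3 (3.49 ± 0.72, adjusted p = 0.000187), AREG (3.82 ± 0.75, adjusted p = 9.79e-05) and HBEGF (3.20 ± 0.54, adjusted p = 1.09e-05) were higher in epithelial cells on the log2 scale. BTC was lower in epithelial cells, by -2.11 ± 0.46 (adjusted p = 0.000454). ERBB2 did not pass, at 0.29 ± 0.32 (adjusted p = 0.559), and its sign turned without TMM scaling and without calf 2. The EGFR level was higher in epithelial cells in 2 of the 3 calves, and the median log2 difference over the 6 members with UMIs in both classes was 2.65, beside 0.27 over all genes. With 3 UMIs in fibroblasts, the ratio of the pooled ERBB3 levels was 8.73, with a counting interval of 2.98 to 42.3. Without calf 3, EGFR (adjusted p = 0.132) and BTC (adjusted p = 0.221) no longer passed, which left 3 members, beside 2661 of 14924 genes.

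Against immune cells, 5 members passed, beside 39.3% of all genes. EGFR (4.84 ± 0.62, adjusted p = 6.05e-08), ERBB2 (4.69 ± 0.54, adjusted p = 6.00e-09) and BTC (3.25 ± 0.88, adjusted p = 0.00295) were higher in epithelial cells. AREG (-2.08 ± 0.37, adjusted p = 2.08e-05, lower in 3 of 3 calves) and EREG (-2.81 ± 0.74, adjusted p = 0.00274, lower in 2 of 3 calves) were lower there. The median over the 7 members with UMIs in both classes was 1.15, beside 0.26 over all genes. Without calf 1, whose immune AREG lay in 1 cell, the AREG difference was -1.27 ± 0.30 and still passed (adjusted p = 0.000154), and without calf 3 it was -3.13 ± 0.37. Without calf 3 neither EREG (adjusted p = 0.443) nor BTC (adjusted p = 0.228) did, while the ERBB3 difference, at 1.15 ± 0.48 with all calves (adjusted p = 0.0554), rose to 3.77 ± 1.12 (adjusted p = 0.00676). For BTC, 2 immune UMIs gave a ratio of the pooled levels of 6.10, with a counting interval of 1.68 to 50.5.

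In several of these contrasts 1 calf held all UMIs of the other class. Without that calf the fitted log2 difference became 8.84 for BTC against endothelial cells, 9.91 for ERBB3 and 10.64 for AREG against fibroblasts, and 10.45 for EGFR and 8.87 for BTC against immune cells. Such values depend on the prior count of the fit and are no bounds.

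Outside the epithelium, single clusters held nearly all AREG, EREG and ERBB3 UMIs of immune cells and nearly all BTC UMIs of fibroblasts. Of the 304 AREG UMIs in immune cells, 303 lay in a cluster of 510 cells led by BLA-DQB, BOLA-DRA, CD74 and FCER1A, genes of antigen presentation and of the IgE receptor, and 1 in the cluster of 297 cells led by CD3E, CTSW and IL7R, which are T-cell genes. The level in the first was 10.0, 0.957 and 0.805 in calves 1, 2 and 3 and in the second 0, 0 and 0.0118. All 12 EREG UMIs and all 22 ERBB3 UMIs of immune cells were in the first cluster too. HBEGF was at 0.890, 0.159 and 0.191 in the first and at 0, 0.0806 and 0.166 in the second, and in calf 1 rested on 4 UMIs.

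Of the 41 BTC UMIs in fibroblasts, 40 lay in the cluster of 316 cells led by HIGD1B, ACTA2, TPM2 and MYH11, the myofibroblast or mural cluster. Its BTC level was 0.355, 0.287 and 0.530 in calves 1, 2 and 3, the first from 1 UMI in 6 cells. The fibroblast clusters led by CXCL14 and PENK and by DLK1 and MFAP5 held 0 and 1 BTC UMI. Nearly all BTC UMIs outside the epithelium thus came from the cluster led by contractile genes. In endothelial cells, HBEGF was at 0.347, 0.126 and 0.355 in the PLVAP-led cluster. It was higher in each calf in the CLDN5-led one, at 0.549, 0.152 and 0.385. The values of calf 1 came from 60 and 20 cells, and no test was run between these clusters.

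**Figure D2:**
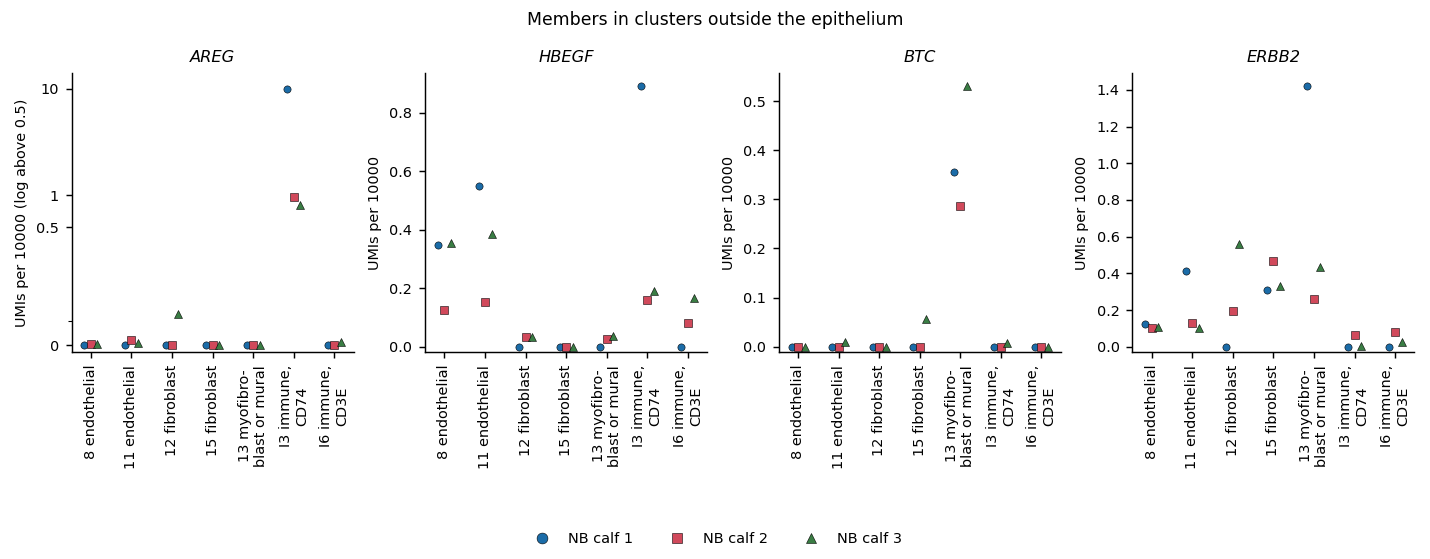
Levels of AREG, HBEGF, BTC and ERBB2 (vertical axes, UMIs per 10000, logarithmic above 0.5 for AREG) in the 7 clusters outside the epithelium, with 1 point per NB calf. AREG stands out in immune cluster I3, led by CD74, BTC in the myofibroblast or mural cluster, and HBEGF is seen in both endothelial clusters and in I3.

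The epithelial cells fell into 11 clusters, which were named from lists of layer markers. Of these, 7 were basal-like (16786 cells), 1 was spinous-like (886 cells, led by SPINK5, KRTDAP and A2ML1), 2 were mitotic-like (2370 cells, led by UHRF1 and RRM2 in one and by CENPF and TOP2A in the other), and 1, led by mitochondrial genes, was left unnamed. No cluster could be named granule-like, and that comparison was left out. The spinous-like cluster 9, with a spinous score of 3.33, also had the highest granule score, 1.21 against at most 0.113 in the other clusters. Granule cells were thus not separated from the cells called spinous-like below. Several basal-like clusters were led by genes other than layer markers. The leading genes of cluster 0 included PPM1N, ATF3, FOS and JUNB, those of cluster 1 the chemokine genes CXCL3 and GRO1, those of cluster 5 CCL20, DUSP1 and DNAJB1, and those of the 157 cells of cluster 14 KRT14 beside the cell-cycle genes PTTG1 and CKS2, at a median of only 1714 UMIs. Cluster 14 scored higher on the mitotic list (1.58, the mean log2 distance of the list's genes from their mean over clusters) and the spinous list (0.658) than on the basal one (-0.155). Without cluster 14, a choice made after seeing the data, 5 members were called in each layer comparison, as with it. Of all 15050 genes, 5154 were then called in the spinous-like and 4240 in the mitotic-like comparison. Cluster 1 (4105 cells) scored -0.125 on the basal list and -0.073 on the granule list. Cluster 10 (439 cells) scored 0.307 on the basal list and 0.444 on the list of S-phase genes. Neither cluster was left out on its own. The rule that named the layers was set after the clusters had been seen. Immediate-early and dissociation genes (14 genes such as FOS, JUN, EGR1 and HSPA1A) were above the level of all epithelial cells in every calf in clusters 0, 1 and 5, with 83.3, 121 and 143 UMIs per 10000 in calves 1, 2 and 3 against 31.8, 31.3 and 57.9 in the other basal-like clusters. The spinous-like cells held 43.5, 18.0 and 38.3 and the mitotic-like cells 48.5, 33.6 and 57.1.

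Between the spinous-like cluster and the basal-like clusters, ERBB3 and ERBB2 were higher and EGFR lower in the former. A division of the cells by basal-list share, given below, did not give the same picture for ERBB2 and EGFR. ERBB3 was at 0.367, 0.556 and 0.235 UMIs per 10000 in spinous-like cells of calves 1, 2 and 3 and at 0.116, 0.159 and 0.0518 in basal-like cells. Every spinous-like value lay above every basal-like one. ERBB2 was also higher in spinous-like cells in each calf, at 0.496, 0.587 and 0.418 against 0.308, 0.426 and 0.265. EGFR was lower there in each calf, at 0.154, 0.0351 and 0.174 against 0.196, 0.110 and 0.372.

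Of the 8 members, 5 passed between spinous-like and basal-like cells with edgeR's quasi-likelihood test, beside 34.1% of the 15059 genes tested, and 3 of them were receptors. The log2 difference was 1.93 ± 0.16 (SE; adjusted p = 1.24e-07) for ERBB3, 0.67 ± 0.13 (adjusted p = 0.000841) for ERBB2 and -0.86 ± 0.21 (adjusted p = 0.00408) for EGFR. Without calf 2 EGFR no longer passed (adjusted p = 0.0593). After thinning, an ERBB3 UMI was found in 8.80%, 10.5% and 6.98% of spinous-like cells and in 2.33%, 3.14% and 1.05% of basal-like cells, whose median depths before thinning were 11501 and 7461.5 UMIs. When the epithelial cells of a calf were instead cut into quintiles by their share of basal-list UMIs, the log2 ratio of the lowest to the highest quintile was 0.42 for ERBB3, -0.31 for ERBB2 and -0.01 for EGFR, so that ERBB2 turned its direction. The lowest quintile held 4234 cells, most of them not among the 886 spinous-like cells, so the quintiles compare largely other cells.

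BTC was higher in spinous-like cells as well. It was at 0.0449, 0.113 and 0.0469 in spinous-like cells against 0.0116, 0.0351 and 0.0334 in basal-like cells, with 16, 58 and 10 UMIs behind the former. The log2 difference was 1.50 ± 0.30 (adjusted p = 0.000857), and without calf 2 the adjusted p was 0.0526. Between the quintiles the log2 ratio was 1.36. The median over the 8 members was 0.44, beside -0.20 over all genes.

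**Figure D3:**
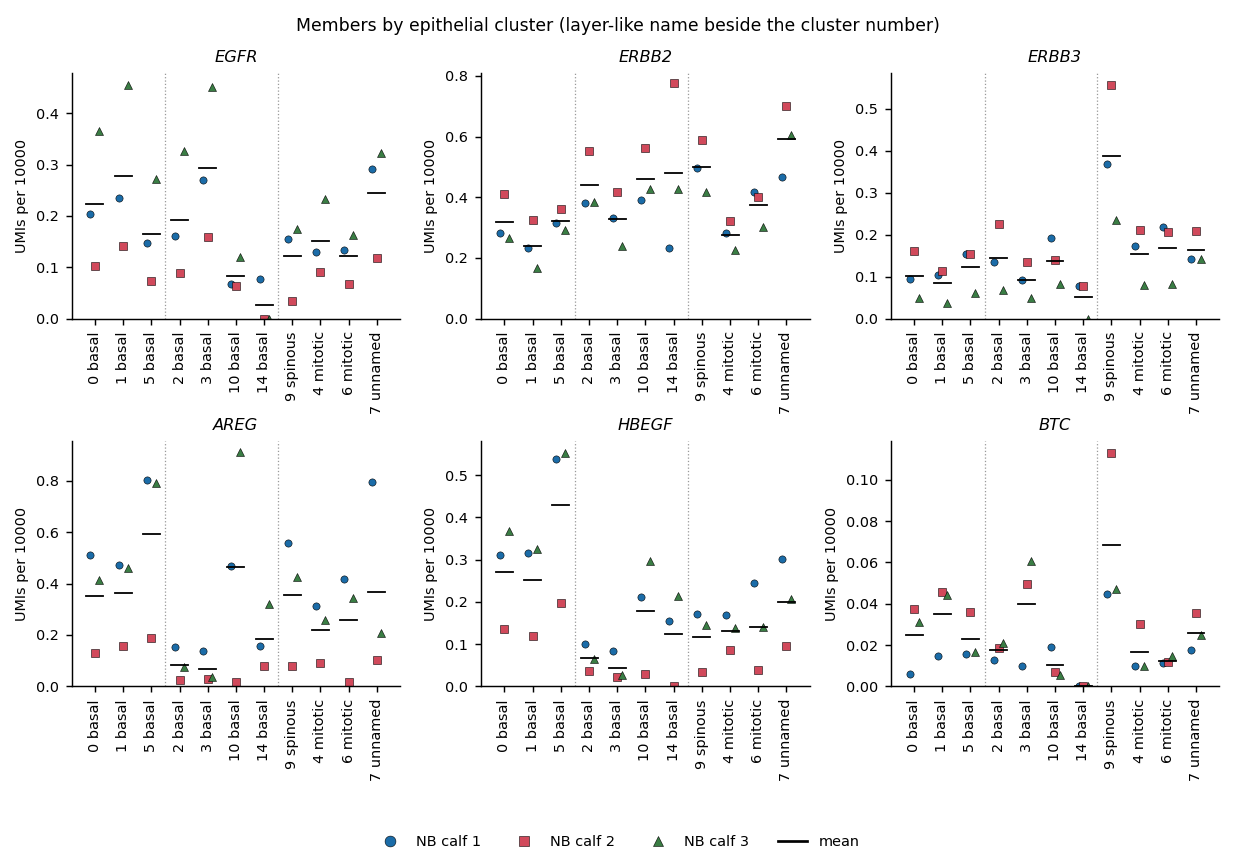
Levels of 6 members (vertical axes, UMIs per 10000) in the 11 epithelial clusters, with 1 point per NB calf and a line at the mean of the calves. Dotted lines set off the basal-like clusters 0, 1 and 5, which had the highest immediate-early level, and the other basal-like clusters. ERBB3 peaks in the spinous-like cluster 9 in each calf and BTC in calves 1 and 2, and AREG and HBEGF are low in the basal-like clusters 2 and 3.

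For AREG and HBEGF, the answer depended on which basal-like cells were used. Spinous-like cells held HBEGF at 0.171, 0.0332 and 0.146 UMIs per 10000, below the basal-like levels of 0.248, 0.0994 and 0.290 in each calf. AREG was at 0.558, 0.0800 and 0.427 against 0.392, 0.104 and 0.387, higher in calves 1 and 3 and lower in calf 2. The log2 differences over all basal-like cells were -0.90 ± 0.21 for HBEGF (adjusted p = 0.00268) and 0.20 ± 0.17 for AREG (adjusted p = 0.404). Between the quintiles the log2 ratios were 0.08 for HBEGF and 0.66 for AREG.

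The basal-like clusters 0, 1 and 5 held far more of both ligands than the other basal-like clusters. AREG was at 0.539, 0.149 and 0.483 in the former and at 0.177, 0.0243 and 0.158 in the latter, and HBEGF at 0.345, 0.138 and 0.377 against 0.105, 0.0312 and 0.0798. Both ligands were higher in the former set in each calf, although the low calf 2 made the AREG ranges of the sets overlap. EGFR was close in both sets, at 0.207, 0.112 and 0.384 against 0.179, 0.106 and 0.344. Both sets were defined from the cells themselves, and no test was run between them.

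When clusters 0, 1 and 5 were left out, a choice made after seeing the data, HBEGF turned its direction and AREG passed. Spinous-like cells were then higher than basal-like cells by 1.71 ± 0.14 for AREG (adjusted p = 9.63e-07) and by 0.73 ± 0.19 for HBEGF (adjusted p = 0.0106) on the log2 scale. The clusters left out were all basal-like and held more of both ligands than the rest, so a rise of both differences was built into the choice. The adjusted p-values of AREG and HBEGF are therefore no separate support for it. ERBB3 (1.75 ± 0.15), BTC (1.71 ± 0.31), ERBB2 (0.42 ± 0.12) and EGFR (-0.71 ± 0.21) kept their direction and passed. In this refit 6 members were called, beside 4543 of 13947 genes. Over the 32 sums per calf and epithelial cluster with at least 50 cells, Pearson's r between the immediate-early list and the member was 0.67 for HBEGF, 0.62 for EGFR, 0.48 for AREG, -0.51 for ERBB2 and -0.46 for ERBB3 on log2 levels. These sums share libraries and depth. Within calves 1, 2 and 3 the r of HBEGF was 0.90, 0.81 and 0.65 and that of AREG 0.77, 0.64 and 0.25. The others were weaker in calf 1, with 0.30, 0.65 and 0.62 for EGFR, -0.20, -0.56 and -0.45 for ERBB2 and -0.0059, -0.30 and -0.63 for ERBB3. The part of the dissociation in these levels was not tested.

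**Figure D4:**
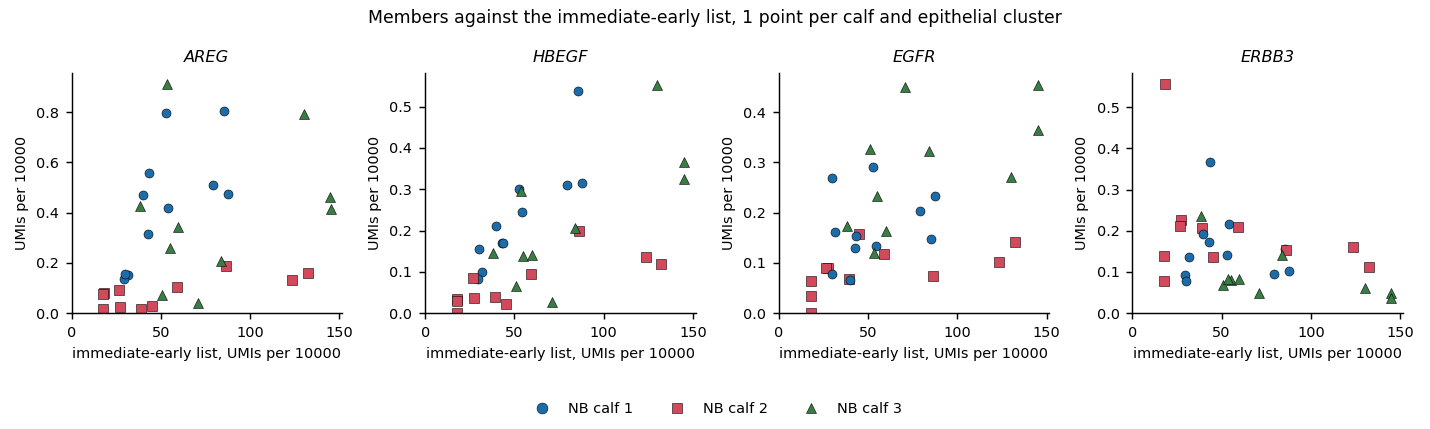
Levels of 4 members (vertical axes, UMIs per 10000) against the summed level of 14 immediate-early and dissociation genes (horizontal axes, UMIs per 10000), with 1 point per NB calf and epithelial cluster of at least 50 cells in that calf. HBEGF rises with the list within each calf, and calf 2 mostly lies below the other calves for AREG, HBEGF and EGFR.

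**Figure D5:**
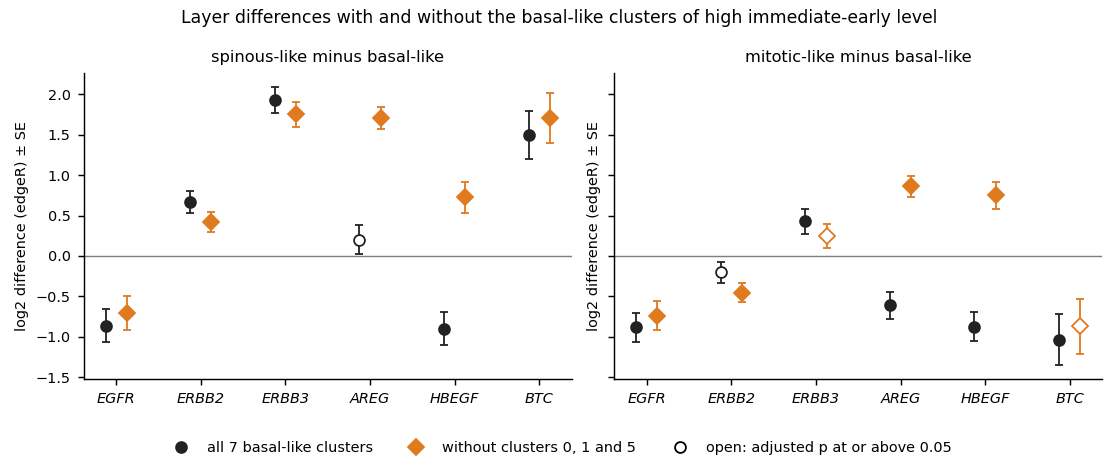
Log2 differences of 6 members against basal-like cells (vertical axis, edgeR estimate with SE bars), with all 7 basal-like clusters in black and without clusters 0, 1 and 5 in orange. Open symbols have an adjusted p of 0.05 or more. HBEGF changes sign in both comparisons and AREG in the mitotic-like one, whereas EGFR, ERBB2, ERBB3 and BTC keep their sign.

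Of the 8 members, 5 passed between mitotic-like and basal-like cells, beside 28% of all genes, with a median log2 difference of -0.41 over the members and -0.09 over all genes. EGFR was at 0.131, 0.0774 and 0.203 in mitotic-like cells, below basal-like cells in each calf, with a log2 difference of -0.88 ± 0.18 (adjusted p = 0.00164). HBEGF (-0.87 ± 0.18, adjusted p = 0.00156), AREG (-0.61 ± 0.17, adjusted p = 0.0125) and BTC (-1.03 ± 0.32, adjusted p = 0.0228) were lower in each calf as well, and ERBB3 (0.43 ± 0.15, adjusted p = 0.0458) was higher. Without clusters 0, 1 and 5, AREG and HBEGF turned to 0.86 ± 0.13 (adjusted p = 0.000364) and 0.75 ± 0.16 (adjusted p = 0.0048), a rise again built into that choice. ERBB3 (adjusted p = 0.258) and BTC (adjusted p = 0.0809) then no longer passed. EGFR (-0.74 ± 0.18, adjusted p = 0.01) and ERBB2 (-0.45 ± 0.12, adjusted p = 0.0132) were lower. Without calf 2 AREG was at -0.38 ± 0.16 (adjusted p = 0.123) and BTC at -1.03 ± 0.40 (adjusted p = 0.0858), without calf 3 BTC was at -0.67 ± 0.38 (adjusted p = 0.272), and ERBB3 did not pass without calf 1 (adjusted p = 0.208) or without calf 3 (adjusted p = 0.172).

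Without TMM scaling, 3 members passed in the mitotic-like comparison, beside 4362 of 15059 genes. Of all called genes, 69.6% were then higher in mitotic-like cells, against 47.5% with TMM scaling. In the class comparisons the same change moved the share of called genes that were higher in epithelial cells. It went from 52.5% to 32.5% against endothelial cells, from 49.2% to 24.3% against fibroblasts and from 52.4% to 36.9% against immune cells. In each, 5 members were called, beside 6587, 4825 and 6182 of 16086 genes. Against these 3 classes the median of all genes moved from 0.17, 0.27 and 0.26 to -0.24, -0.22 and -0.10 on the log2 scale.

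The calves differed in a pattern that held across epithelial clusters. AREG and HBEGF were each lowest in calf 2 in 11 of 11 clusters, and EGFR in 10. EGFR was highest in calf 3 in 10 of 11 clusters. ERBB2 was highest in calf 2 in 10 clusters and ERBB3 in 8, and ERBB3 was lowest in calf 3 in all 11. The library and the animal cannot be told apart. The immediate-early list in epithelial cells was at 56.3, 78.2 and 105 UMIs per 10000 in calves 1, 2 and 3. Its part in the calf differences was not tested.

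Few cells held both a ligand and a receptor UMI at this depth. After thinning, 4.09%, 2.16% and 7.22% of epithelial cells had an EGFR UMI, 10.3%, 3.99% and 9.80% had a UMI of any of the 5 ligands, and 0.382%, 0.117% and 0.811% had both. Without thinning, 5.39%, 0.990% and 7.07% had both. AREG and HBEGF were found together in 21, 8 and 35 thinned cells, against 14.4, 3.23 and 21.4 if the genes had been placed independently within each cluster of a calf. AREG and EGFR were found together in 10, 6 and 30 cells against 10.5, 3.38 and 25.2, and HBEGF and EGFR in 7, 4 and 33 against 8.39, 3.01 and 25.5, above the independent number in calves 2 and 3 and below it in calf 1. For EGFR and ERBB2 the numbers were 19, 14 and 28 against 12.9, 16.5 and 29.3, with no common direction.

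Of the wider pathway list of 42 genes, chosen by role, 41 were measured, and EGF itself was not analysed here. Epithelial cells held no NRG3 UMI, and ERBB4 was at 0, 0.000148 and 0 UMIs per 10000 in calves 1, 2 and 3. NRG1, which encodes a ligand of ERBB3 and has 2 rows in the files, was at 0.0800, 0.176 and 0.354, and NRG2 at 0.0624, 0.0600 and 0.0844. In spinous-like cells the log2 difference from basal-like cells was -1.94 and -1.11 for the rows of NRG1 (adjusted p = 0.000435 and 0.00297, edgeR) and -1.92 for NRG2 (adjusted p = 0.000376), opposite in sign to that of ERBB3.

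Between spinous-like and basal-like cells, 9 of the 38 rows of the wider list that could be tested were higher and 14 lower, beside 34.1% of all genes called, with a median log2 difference of -0.59 beside -0.20 over all genes. Without clusters 0, 1 and 5 the numbers were 11 and 9 of 37, beside 4543 of 13947 genes called. The median was then 0.16, beside -0.14 over all genes. Of 10 signal carriers, 6 were higher and none lower, among them HRAS (0.88), a small GTPase, and MAP2K1 (0.46), a kinase that acts on MAP kinases. Of 11 inhibitors, 5 were lower and none higher, among them SPRY1 (-1.56), SPRY2 (-2.25), SPRED1 (-1.82) and SPRED2 (-2.84), which restrain the RAS pathway, whereas ERRFI1, a direct inhibitor of EGFR, was at -0.68 and did not pass. DUSP6, a phosphatase of MAP kinases, was lower (-0.76).

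Of 5 genes of ligand release, RHBDL2, an intramembrane protease, was higher in spinous-like cells, at 0.146, 0.359 and 0.122 against 0.0136, 0.00452 and 0.00882 UMIs per 10000 (log2 difference 4.74). ADAM10 was lower, at 0.294, 0.439 and 0.850 against 1.02, 0.871 and 1.81 (-1.19). RHBDF1, which helps to bring ADAM17 to the cell surface, was at 0.04 and did not pass. Of 7 targets, CCND1 (1.55) and PHLDA1 (1.93) were higher and EGR1 (-1.57), FOS (-2.35), IER3 (-1.83), MYC (-1.16) and ETV5 (-1.93) lower. EGR1, FOS and IER3 are also genes of the immediate-early list.

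Between mitotic-like and basal-like cells, 3 of the 38 rows of the wider list were higher and 12 lower, beside 28% of all genes called. Without clusters 0, 1 and 5 the numbers were 3 and 6 of 37, beside 3303 of 13947 genes called. RHBDL2 was higher again (3.58), as was HRAS (0.35), and the genes lower were RHBDF1 (-0.58), GAB1 (-0.48), CCND1 (-0.48), SPRY1 (-1.31), SPRY2 (-1.43), DUSP5 (-1.15), DUSP6 (-0.997), ERRFI1 (-1.12), EGR1 (-1.44), FOS (-1.94), IER3 (-1.30) and MYC (-1.07). In the class comparisons, the rows of the list that were higher and lower in epithelial cells numbered 9 and 14 of 39 against endothelial cells (38.3% of all genes called), 11 and 8 against fibroblasts (29.3%) and 15 and 6 against immune cells (39.3%).

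To describe which genes varied most like each member, levels were compared over 46 sums of a calf and a cluster with at least 50 cells, among 9077 genes, as Pearson's r of log2 levels. EGFR was most like DACT2 (0.91), F3 (0.90) and FGFR2 (0.90), ERBB2 like MEIS1 (0.81), OSBPL5 (0.81) and NTRK2 (0.79), and ERBB3 like ATP6V1B1 (0.92), CGN (0.90) and PKP1 (0.89). AREG had its highest values with RBM47 (0.76), PPIF (0.75) and SLC25A33 (0.72) and HBEGF with SLC20A1 (0.77), ND6 (0.73) and RCAN1 (0.72). BTC was most like DKK1 (0.88), HRC (0.87) and COX4I2 (0.87). EREG was most like CD300A (0.94), TLR7 (0.92) and VNN2 (0.92), and TGFA like NRG1 (0.56), PSME4 (0.54) and FPGS (0.52), both on few UMIs. Of the immune cluster with the highest EREG level, only the sums of calves 2 and 3 entered, with 51 and 452 cells. The sums share libraries, depth and cell classes.

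In the RefSeq annotation of ARS-UCD2.0, EPGN, EREG, AREG and BTC follow each other with no other protein-coding gene between them. Their patterns in these cells were not all alike. BTC was highest in myofibroblast or mural cells, whereas AREG and EREG were both highest in the immune cluster led by BLA-DQB and CD74. EPGN had a mean level of only 0.000655 in epithelial cells and passed in no class or layer comparison, so no pattern is given for it.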

How the data were processed

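Droplet single-cell RNA-seq (Chromium Single Cell 3′ v3) of 3 newborn calves was used, with 1 library per calf. The deposited values are raw UMI counts per gene and barcode, which the authors made with Cell Ranger 3.1.0 on the ARS-UCD1.2 genome. Cells with 500 to 4000 genes, a total of up to 50000 UMIs and a mitochondrial share of up to 40% (13 protein-coding genes counted) were kept, and simulated-doublet scores removed 3.91% to 8.52% of them per calf. Cells were clustered in Python 3.11.15 (numpy 2.4.6, scipy 1.17.1, scikit-learn 1.9.0, leidenalg 0.10.2) on 2000 variable genes without the members and the wider pathway list, with the calves merged by Harmony, at a resolution of 0.1 for classes and 0.8 for layers. Clusters were named from marker lists, trying the lists from the highest score down. A spinous-like, granule-like or mitotic-like cluster needed a marker of its list among its 10 leading genes, whereas a basal-like cluster needed only a basal score of at least -0.5. Clusters with under 3 markers detected, with leading genes of another list or mostly mitochondrial ones, or shallow and without a marker were left unnamed.

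Levels are a gene's UMIs per 10000 UMIs after adding up cells, and shares are of cells thinned to 2000 UMIs, which left out 512 epithelial cells. Intervals of 95% and the limit of 3 counts behind a 0 cover counting error only. Summed counts (at least 5 cells per class sum and 20 per layer sum, genes with at least 10 UMIs) were tested with edgeR 4.0.16 (quasi-likelihood, TMM, R 4.3.3) with the calf as a block, since the groups of a calf come from the same animal, and called at an adjusted p under 0.05 over all genes. The SE given with an edgeR log2 difference is its absolute value divided by the square root of the F statistic of its test. It is an approximation and need not match the p-value. The scripts were tested on simulated data. Alternatives were DESeq2 1.42.0, no TMM, another filter on low counts, no block, each calf left out, other limits on cells, no Harmony, other resolutions, other thinning, means over cells and quintiles by basal-list share. Alternatives without the basal-like clusters of high immediate-early level and without cluster 14 were added after seeing the data. All 8 members are named. Of the wider list of 42 genes the 2 highest per role in epithelial cells and those called with a log2 difference of 1 or more between layers are named, and further called genes were named after their values were seen. For likeness, the 3 genes with the highest correlation of log2(level + 0.1) are given. The members and lists were chosen with earlier results of these data known.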

Additional observations from a re-analysis of the deposited data

Results flagged for a closer look

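Barcodes with more than 4000 genes (797, 187 and 637 in calves 1, 2 and 3) were outside the comparisons but held UMIs of all 8 genes above the level of 0.000601 that 3 counts give. The pooled levels were 0.153 UMIs per 10000 for EGFR, 0.320 for ERBB2, 0.178 for ERBB3, 0.643 for AREG, 0.00280 for EREG, 0.237 for HBEGF, 0.000801 for TGFA and 0.0198 for BTC. AREG was at 0.872, 0.0596 and 0.515 in these barcodes of calves 1, 2 and 3, so that calf 2 was the lowest there too. Whether these barcodes are large cells or doublets was not tested.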

How the results depend on the processing

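For the 25 log2 differences called, the refits under the alternatives chosen at the start gave 294 values, of which 260 kept direction and call, 34 lost the call and none turned direction. The quintiles, which are no refit and are not among these values, turned 2 of the called differences (ERBB2 and HBEGF between spinous-like and basal-like cells). The number of members called, 5 in each comparison, ranged over the calves left out in turn from 3 to 5 against fibroblasts, from 3 to 5 between spinous-like and basal-like cells and from 3 to 4 between mitotic-like and basal-like cells. Without the replicate block it was 1 in the spinous-like comparison, beside 2193 of 15059 genes, and 0 in the mitotic-like one, beside 659. In the latter it was 0 also at an unadjusted p under 0.05 with edgeR, and 5 with DESeq2 with the block. Of the 25 calls, 9 were lost without the block. DESeq2 called 3 members against immune cells, beside 4867 of 16086 genes. In the mitotic-like comparison 3 were called without TMM, without doublet removal and at a resolution of 0.4. Beside them stood 4362 of 15059, 3534 of 14747 and 4279 of 15060 genes.

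Uncalled differences that turned sign were ERBB2 against fibroblasts (-0.21 without TMM, -0.30 to 0.82 over the calves left out), EREG against fibroblasts (-0.58 with DESeq2), HBEGF against immune cells (-0.020 without TMM, -0.0047 with DESeq2, -0.51 to 0.49 over the calves left out), spinous-like AREG (-0.017 to 0.42 over the calves left out, -0.18 with 500 to 4000 genes alone), spinous-like TGFA (-4.34 to 0.76 over the calves left out), mitotic-like EREG (-0.60 to 0.016 over the calves left out, 0.41 without Harmony) and mitotic-like TGFA (0.29 without Harmony, 0.36 at a resolution of 0.4). Without the basal-like clusters of high immediate-early level, HBEGF turned to 0.73 and TGFA to -0.0049 in spinous-like cells, and AREG to 0.86, HBEGF to 0.75 and EREG to 1.22 in mitotic-like cells. Leaving out cluster 14, also added after seeing the data, changed no member's call in either layer comparison. By quintiles of the basal-list share, ERBB2 turned to -0.31 and HBEGF to 0.076. The causes were not tested. Calf 1, with 10 immune cells and 22 fibroblasts, and the few UMIs of EREG and TGFA limit what can be detected.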
